A study of Mus musculus with 6 samples.

Results

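Transcripts of 10 inflammasome, cytokine and chemokine genes were followed in gastrocnemius muscle of dysferlin-deficient mice, a model of the muscular dystrophy caused by loss of this membrane repair protein. They were taken by symbol from the 57010 genes counted, and all 10 were present: the sensor Nlrp3, the adaptor Pycard, the protease Casp1, the cytokines Il1b, Il18 and Il6, and the chemokines Ccl2, Ccl6, Ccl9 and Cxcl12. Frozen muscle of 6 untreated mice aged 3 months was measured by poly(A)-selected, directional RNA-seq, each library coming from 1 animal. The 3 mutants were B6.A-Dysfprmd/GeneJ mice (BLAJ), homozygous for the Dysfprmd allele, with replicates 1 and 2 female and replicate 3 male. The 3 controls were wild-type C57BL/6 mice, all male, so sex is spread unevenly over the groups. The allele is inherited in every cell, and whole muscle was used, so a transcript of immune cells and one of fibres are measured in the same tube.

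The NLRP3 inflammasome is a protein complex that macrophages and other cells assemble in steps. Toll-like receptor and NF-kB signalling first raises the sensor and the cytokine precursors, and a second signal such as extracellular ATP or loss of potassium then makes NLRP3 gather the adaptor ASC (gene Pycard) and pro-caspase-1. Caspase-1 cuts the precursors of interleukin-1 beta and interleukin-18. Assembly and cutting happen in proteins, and transcript counts show neither. Chemokines draw leukocytes into injured muscle, and CCL2 with its receptor CCR2 brings in the monocytes that become muscle macrophages.

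Read pairs assigned to genes numbered 35042245 to 40230648 in mutants and 40367595 to 43733641 in controls. The limit that a count of 0 allows, 3 counts in a library, corresponds to 0.0686 to 0.0856 CPM of the unadjusted library total. Gene levels in CPM are instead counts scaled to the TMM-adjusted total of the library. Dysf stood at 14.7 to 20.3 CPM in mutants and 72.3 to 145 CPM in controls (edgeR adjusted p = 0.0249). Ifi202b and H2-Ea-ps, which C57BL/6 mice are known to lack as transcripts, had 0 counts and 1 count over the mutants, against 1.02 to 7.69 CPM (Ifi202b) and 2.37 to 3.44 CPM (H2-Ea-ps) in the libraries labelled C57BL/6. Those libraries thus differ from their label in these transcripts, and strain background and loss of dysferlin cannot be told apart in any comparison below. The 10 fibre markers, such as Acta1 and Ckm, summed to 162000 to 201000 CPM in mutants and 156000 to 208000 CPM in controls, with none at 0, which fits the label of skeletal muscle.

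No result below rests on the upstream sequences, which are shown for 5 members picked by their counts. These are Il6, whose transcript was near the detection limit, Il1b, high in 1 control, the neighbouring genes Ccl6 and Ccl9, which varied together, and Cxcl12, the highest per kilobase of exon. Each is the 250 bases before the annotated start, 5′ to 3′ on the gene's strand, from RefSeq on build GRCm38.p6, which differs from the build of the counts. The regions are chr5:30012864-30013113 on the + strand for Il6, chr2:129371140-129371389 on the - strand for Il1b, chr11:83593088-83593337 and chr11:83578637-83578886 on the - strand for Ccl6 and Ccl9, and chr6:117168285-117168534 on the + strand for Cxcl12. Capitals mark the match to the NF-kB consensus in Il6, the TATAAA word in Il1b and the longest run that Ccl6 and Ccl9 share.
Il6: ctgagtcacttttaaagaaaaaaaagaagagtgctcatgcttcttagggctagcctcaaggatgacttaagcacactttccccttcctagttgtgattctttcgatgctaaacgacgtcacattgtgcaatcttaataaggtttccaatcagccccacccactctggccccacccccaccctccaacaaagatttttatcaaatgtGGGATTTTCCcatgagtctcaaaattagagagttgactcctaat
Il1b: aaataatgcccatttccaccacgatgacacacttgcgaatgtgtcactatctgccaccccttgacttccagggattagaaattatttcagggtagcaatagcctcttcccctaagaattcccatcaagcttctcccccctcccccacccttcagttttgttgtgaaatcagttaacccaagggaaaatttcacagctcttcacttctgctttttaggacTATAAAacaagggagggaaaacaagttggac
Ccl6: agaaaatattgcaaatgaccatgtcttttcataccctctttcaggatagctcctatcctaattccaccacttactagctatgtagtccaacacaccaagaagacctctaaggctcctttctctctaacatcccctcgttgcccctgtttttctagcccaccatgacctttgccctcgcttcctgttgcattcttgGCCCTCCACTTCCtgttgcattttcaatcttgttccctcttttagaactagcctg
Ccl9: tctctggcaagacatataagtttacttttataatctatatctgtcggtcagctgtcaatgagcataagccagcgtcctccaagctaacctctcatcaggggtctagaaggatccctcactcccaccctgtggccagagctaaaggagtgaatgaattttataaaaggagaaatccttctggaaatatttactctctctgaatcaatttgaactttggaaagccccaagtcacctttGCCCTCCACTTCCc
Cxcl12: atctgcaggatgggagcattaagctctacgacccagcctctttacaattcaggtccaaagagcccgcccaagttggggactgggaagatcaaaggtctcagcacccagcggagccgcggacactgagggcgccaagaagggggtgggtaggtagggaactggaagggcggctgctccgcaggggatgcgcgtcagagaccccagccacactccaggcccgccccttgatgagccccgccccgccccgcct

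Of the 10 genes 9 had an entry in this set (Ccl2 had none). The NF-kB consensus, searched on both strands, occurs in 7.25% of 32851 such windows. It matched in Il6, with GGGATTTTCC starting 44 bases before the start, in Ccl9, with GGAAAGCCCC (a match on the other strand) starting 35 bases before, and in 1 of the 2 entries of Nlrp3, with GGGAACCCCC, which matches on both strands. The word TATAAA began 31 bases before the start of Il1b, and 2.63% of windows hold it in their last 50 bases on the gene's strand. The run GCCCTCCACTTCC of 13 bases began 55 bases before the start of Ccl6 and 14 bases before that of Ccl9. On either strand it occurs in 5 of the 32851 windows, those of Ccl6 and Ccl9 among them. It was picked as the longest run these genes share, so its presence in both was given. Cxcl12 had a GC content of 64.4% against a median of 52.4%, and 18.4% of windows had as much or more. These are matches of letters, and binding was not measured.

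No member was called. Of the 9 genes that passed the filter on low counts (all but Il6), edgeR called 0 at an adjusted p below 0.05, against 0.199% of all 15589 genes tested. None passed an unadjusted p of 0.05 (6.94% of all genes did), DESeq2 and limma-voom likewise gave 0 at either threshold, and in none did the 3 mutants lie wholly above or below the 3 controls (12.1% of all genes). Log2 fold changes ran from -0.93 for Il1b to 0.79 for Ccl2, with 7 genes higher and 2 lower and a median of 0.31, beside -0.0015 over all genes. The smallest edgeR adjusted p was 0.824, of Cxcl12. The authors' deposited table listed these 9 genes with adjusted p-values of 0.99 to 1 and none for Il6.

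**Figure D1:**
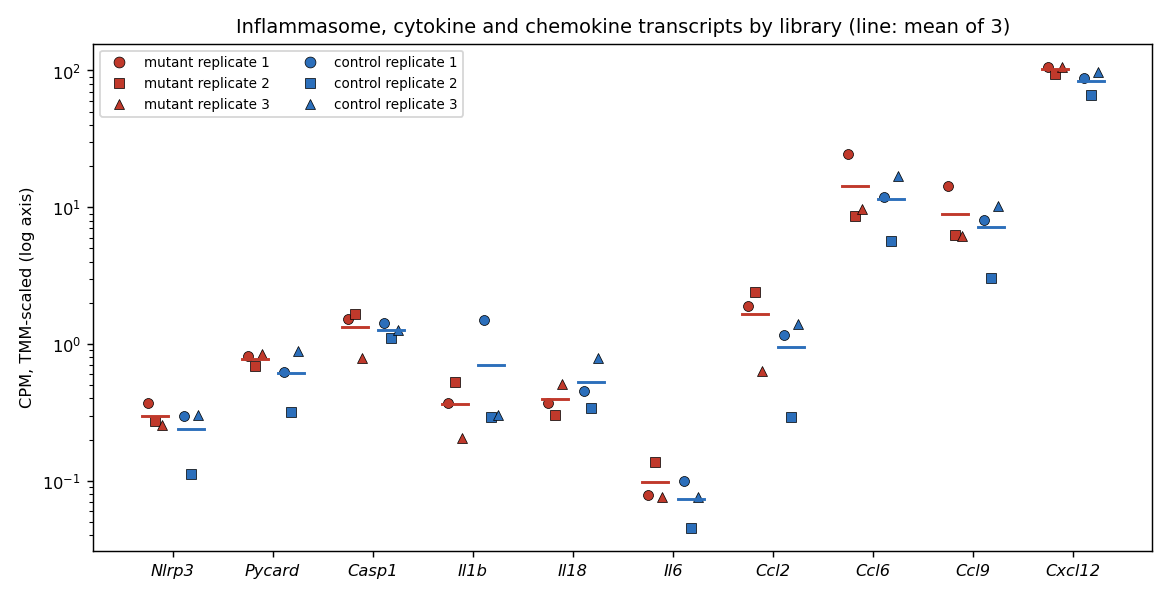
CPM of each gene (log axis) in the 3 mutant libraries (red, left) and the 3 control libraries (blue, right), with symbols for the replicate and a line at the mean of 3. Mutants and controls overlap in all 10 genes, Il1b is highest in control replicate 1 (1.5 CPM), and control replicate 2 is the lowest library in 7 genes.

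Levels spanned a wide range across the genes. Per kilobase of annotated exon (merged exons of GENCODE M21), Cxcl12 averaged 12.4 ± 0.862 CPM in mutants and 10.3 ± 2.02 CPM in controls (SD, n = 3 each). Ccl6 averaged 7.99 ± 5.03 CPM per kilobase in mutants and 6.37 ± 3.1 in controls, and Ccl9 averaged 2.92 ± 1.52 in mutants and 2.35 ± 1.23 in controls. Below them, the means over all 6 libraries were 1.14 CPM per kilobase for Ccl2, 0.866 for Casp1, 0.446 for Il18, 0.279 for Il1b, 0.183 for Pycard, 0.0665 for Nlrp3 and 0.0353 for Il6. The last places belong to the sensor of the complex and to a cytokine near the detection limit. Each neighbour in this order overlapped the next in its range over libraries. Within a library the order was firmer: Ccl6 exceeded Ccl9, Casp1 exceeded Il18, Pycard exceeded Nlrp3 and Nlrp3 exceeded Il6 per kilobase in 6 of 6 libraries, while Il1b exceeded Pycard in 3 of 6. The place of Pycard depends on the strand setting and on the length used. From strand-matched counts its mean was 0.312 CPM per kilobase, above Il1b at 0.266, and it exceeded Il1b in 4 of 6 libraries. Its merged exons span 3.8 kilobases, and the length of the transcripts present was not measured. In CPM not divided by length, Pycard averaged 0.783 in mutants and 0.61 in controls. Il18 averaged 0.394 and 0.526, and Il1b 0.366 and 0.699, in the same order.

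The sensor and the adaptor were scarce, and neither was called. Nlrp3 (ENSMUSG00000032691, chromosome 11) was counted 14, 10 and 10 times in mutant replicates 1, 2 and 3 (0.37, 0.276 and 0.254 CPM), against 12, 5 and 12 times in control replicates 1, 2 and 3 (0.3, 0.113 and 0.305 CPM). The groups overlapped, and control replicate 2 alone lay low. The log2 fold change was 0.33 (95% interval -0.79 to 1.45, edgeR adjusted p = 0.94), and -0.012 without control replicate 2. The interval allows a level in mutants of 0.58 to 2.73 times that of controls.

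Pycard (ENSMUSG00000030793, chromosome 7) codes for ASC, which links the sensor to caspase-1. In the deposited matrix it stood at 0.819, 0.689 and 0.84 CPM in mutant replicates 1, 2 and 3, against 0.624, 0.317 and 0.89 CPM in the controls. The mutants lay close together within the wider range of the controls, and the log2 fold change was 0.36 (95% interval -0.61 to 1.33, edgeR adjusted p = 0.916), and 0.048 without control replicate 2.

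Pycard was the one member whose total changed by more than 1.03 times with the strand setting. The deposited matrix takes no account of strand and gives Pycard 163 read pairs over the 6 libraries, and the strand-matched files give it 297, which is 1.82 times as many, a gain reached by 2.42% of all genes tested. The other 9 members had ratios of 0.997 to 1.03. Gm45205, a gene model on the opposite strand that GENCODE marks as still to be tested by experiment, overlaps Pycard in GENCODE M21, and 148 read pairs fell on the strand opposite to Gm45205 while 7 fell on its own strand. Strand-matched Pycard stood at 70, 30 and 57 read pairs in mutant replicates 1, 2 and 3 and at 35, 30 and 75 in control replicates 1, 2 and 3, so the 3 libraries with the most came from both groups. Its log2 fold change was 0.26 (95% interval -0.88 to 1.39, edgeR adjusted p = 0.955). A neighbouring gene, Trim72, codes for the membrane repair protein MG53 and also gained, with 80333 strand-matched read pairs and 62768 unstranded ones.

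**Figure D2:**
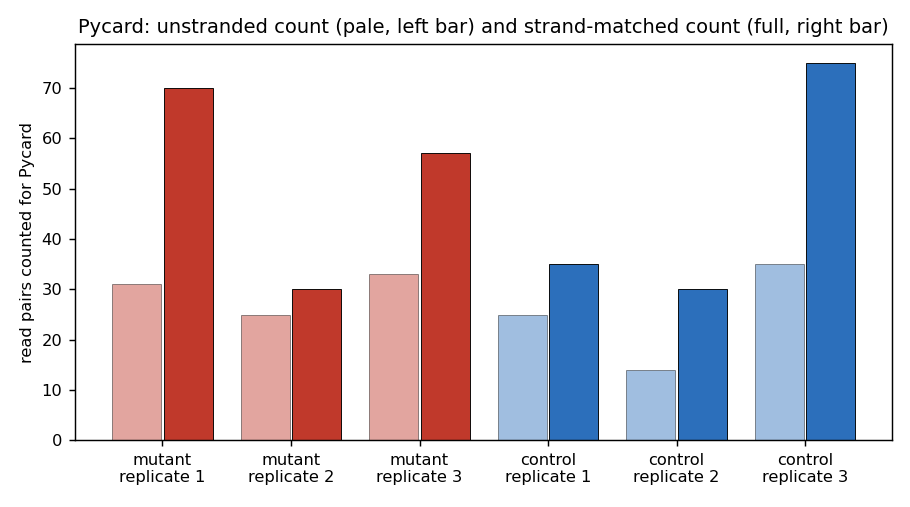
Read pairs counted for Pycard in each library, mutants in red on the left and controls in blue, with the unstranded count of the deposited matrix as the pale bar and the strand-matched count as the full bar. The strand-matched count is highest in control replicate 3 (75) and mutant replicate 1 (70), and the groups overlap in both counts.

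Casp1 (ENSMUSG00000025888, chromosome 9), the protease of the complex, varied 2.1-fold between its lowest and highest library, less than any member but Cxcl12. It stood at 1.53, 1.65 and 0.789 CPM in mutant replicates 1, 2 and 3, against 1.42, 1.11 and 1.27 CPM in the controls. The male mutant was the lowest library and the 2 female mutants the highest. The log2 fold change was 0.062 (95% interval -0.75 to 0.87, edgeR adjusted p = 0.987), and it was -0.68 with sex as a covariate. Both females are mutants and all controls are male, so a value adjusted for sex rests on the 1 male mutant, as the comparison within males does (-0.68). Without mutant replicate 3 the value was 0.33, and without mutant replicate 2 it was -0.13, so its direction rests on single animals.

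The 3 cytokines were all at or below 1.5 CPM, and none was called. Il1b (ENSMUSG00000027398, chromosome 2), the precursor of interleukin-1 beta, was counted 14, 19 and 8 times in mutant replicates 1, 2 and 3 (0.37, 0.524 and 0.204 CPM), against 60, 13 and 12 times in control replicates 1, 2 and 3 (1.5, 0.295 and 0.305 CPM). A single control stood above the rest and the other 2 controls lay within the mutants. The log2 fold change was -0.93 (95% interval -2.66 to 0.8, edgeR adjusted p = 0.868), and 0.27 without control replicate 1 (edgeR adjusted p = 0.916), so its sign rests on that library. Il1b was as frequent as Casp1 in control replicate 1, with a ratio of counts of 1.05 (95% exact interval 0.72 to 1.54, counting error only). In the other libraries that ratio was 0.241, 0.317 and 0.258 in mutants and 0.265 and 0.24 in control replicates 2 and 3, with the highest upper bound at 0.574.

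The library with the most Il1b also had the most neutrophil markers. The 9 neutrophil markers, among them S100a8, S100a9, Csf3r and Cxcr2, summed to 11.4, 3.91 and 4.78 CPM in mutant replicates 1, 2 and 3, against 31.2, 15.8 and 11 CPM in the controls. All 7 of them that were tested were lower in mutants, with a median log2 fold change of -1.62. EdgeR called 0 of them, beside 0.199% of all genes tested. An unadjusted p of 0.05 was passed by 5 of the 7 (6.94% of all genes), and 5 did not overlap between the groups (12.1% of all genes). Csf3r, the receptor of the granulocyte growth factor G-CSF, stood at 1.37, 1.02 and 0.942 CPM in mutants, against 5.12, 1.9 and 2.29 CPM in controls (log2 fold change -1.48, SE 0.43, edgeR adjusted p = 0.534). The change of Csf3r was -0.92 without control replicate 1. Mmp8, a collagenase of neutrophil granules, averaged 0.184 ± 0.0404 CPM in mutants and 0.817 ± 0.66 CPM in controls (SD, n = 3 each; edgeR adjusted p = 0.559). Ly6g and Ngp did not pass the filter. Ly6g had 0 counts in the mutants and 0.25, 0.0453 and 0.0763 CPM in the controls, with 15 counts over all libraries. Ngp stood at 0.0264, 0.0276 and 0 CPM in mutant replicates 1, 2 and 3, against 0.425, 0.363 and 0.0254 CPM in the controls. The part of these cells in the Il1b values was not tested, and fewer cells of a type and less RNA per cell cannot be told apart in whole muscle. Control replicate 2, second in the neutrophil sum, had one of the lower Il1b levels.

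Il18 (ENSMUSG00000039217, chromosome 9), whose product is the other substrate of caspase-1, stood at 0.37, 0.303 and 0.509 CPM in mutant replicates 1, 2 and 3, against 0.45, 0.34 and 0.788 CPM in the controls. Control replicate 3 stood above all mutants and the other controls lay within them. The log2 fold change was -0.41 (95% interval -1.42 to 0.61, edgeR adjusted p = 0.91), and without control replicate 3 it was -0.004. Bco2 and Tex12 overlap it on the other strand, and the strand-matched counts gave it 112 read pairs, against 109 in the matrix.

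Il6 (ENSMUSG00000025746, chromosome 5), a cytokine that muscle fibres and immune cells can both release, was at the limit of this depth. It was counted 3, 5 and 3 times in mutant replicates 1, 2 and 3, against 4, 2 and 3 times in the controls. No order of the groups can be read from such counts, and the gene failed the filter. Fitted without the filter, its log2 fold change was 0.39 with a 95% interval of -1.35 to 2.13 (edgeR adjusted p = 0.946).

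**Figure D3:**
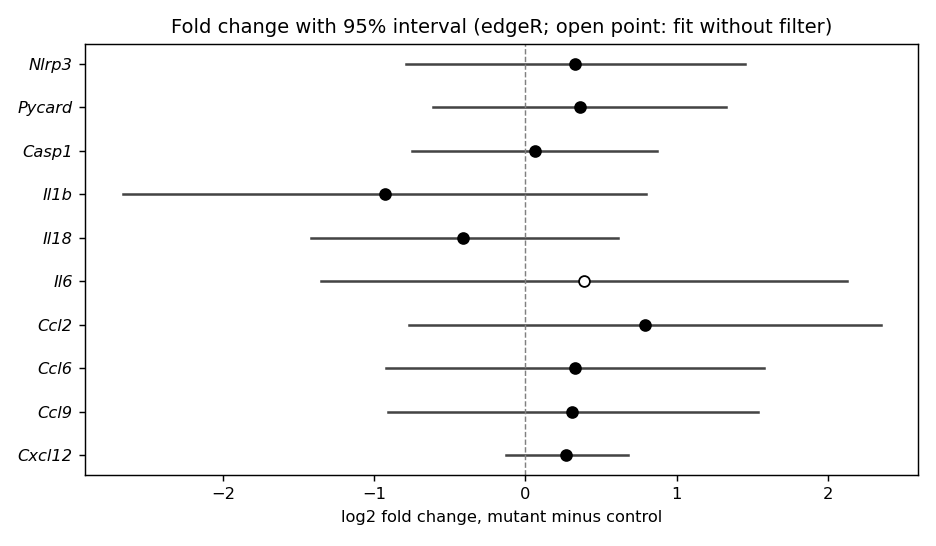
Log2 fold change of mutants over controls (horizontal axis) with its 95% interval for each gene, from edgeR on the deposited counts, and from a fit without the filter for Il6 (open point). Every interval spans 0, the narrowest being that of Cxcl12 (-0.13 to 0.68) and the widest among genes that passed the filter that of Il1b (-2.66 to 0.8).

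The 4 chemokines had the highest mean levels per kilobase, and none was called. Ccl2 (ENSMUSG00000035385, chromosome 11), the monocyte attractant, stood at 1.9, 2.4 and 0.636 CPM in mutant replicates 1, 2 and 3, against 1.17, 0.295 and 1.4 CPM in the controls. Its highest library exceeded its lowest by 8.14 times, the widest spread of the 10 genes. The female mutants were above every control and the male mutant was below control replicates 1 and 3. The log2 fold change was 0.79 (95% interval -0.77 to 2.35, edgeR adjusted p = 0.881), and it was -0.58 with sex as a covariate and in males only, where 1 mutant was left. Without mutant replicate 3 it was 1.17.

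Ccl7, the neighbour of Ccl2 and another ligand of CCR2, stood at 1.08, 1.6 and 0.305 CPM in mutant replicates 1, 2 and 3, against 0.924, 0.159 and 1.27 CPM in the controls. As with Ccl2, mutant replicate 2 was highest, control replicate 2 lowest and mutant replicate 3 next to lowest. The receptor gene Ccr2 averaged 6.07 ± 2.26 CPM in mutants and 6.5 ± 3.2 CPM in controls (SD, n = 3 each), and its log2 fold change was -0.1 (edgeR adjusted p = 0.98).

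Ccl6 (ENSMUSG00000018927) and Ccl9 (ENSMUSG00000019122), neighbouring CC chemokine genes of chromosome 11 known from mouse myeloid cells, moved as a pair from library to library. Ccl6 stood at 24.7, 8.57 and 9.7 CPM in mutant replicates 1, 2 and 3, against 11.8, 5.71 and 16.8 CPM in the controls. Ccl9 stood at 14.2, 6.31 and 6.13 CPM in mutant replicates 1, 2 and 3, against 8.12, 3.04 and 10.3 CPM in the controls. For both genes mutant replicate 1 was highest, then control replicate 3, then control replicate 1, and control replicate 2 was lowest. Log2 fold changes were 0.33 (95% interval -0.92 to 1.58) for Ccl6 and 0.31 (95% interval -0.91 to 1.54) for Ccl9, with edgeR adjusted p = 0.95 and 0.951. Without mutant replicate 1 they were -0.32 and -0.2, so the direction rests on that animal.

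The ratio of Ccl6 to Ccl9 read pairs was 1.74, 1.36 and 1.58 in mutant replicates 1, 2 and 3, against 1.45, 1.88 and 1.62 in the controls. While each gene ranged over more than 4-fold (4.33 for Ccl6 and 4.68 for Ccl9), their ratio stayed between 1.36 and 1.88. Among 12606 genes of at least 1 CPM, each was the other's nearest in pattern, with a root mean square difference of 0.15 in centred log2 CPM over the 6 libraries. The next nearest was C1qb (0.27), a complement chain of macrophages, for Ccl6, and Itgam (0.23), the integrin CD11b of myeloid cells, for Ccl9. With 6 libraries and so many candidates, such likeness is a description only.

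Macrophage markers moved with these chemokines in part. The 13 markers, among them Lyz2, Csf1r, Adgre1 and C1qa, summed to 250, 151 and 199 CPM in mutant replicates 1, 2 and 3, against 146, 127 and 201 CPM in the controls. Mutant replicate 1 was highest and control replicate 2 lowest, as for Ccl6 and Ccl9. Lyz2 gave 103 CPM of that highest sum. Single markers did not all follow the sum: C1qa had the same highest and lowest libraries, while Csf1r was highest in control replicate 3 and lowest in mutant replicate 2. Of the 13, all tested, 10 were higher and 3 lower in mutants, 0 were called by edgeR, none was at 0 and the median log2 fold change was 0.21. Ccl6 read pairs per Lyz2 read pair were 0.24, 0.146 and 0.182 in mutants and 0.258, 0.14 and 0.304 in controls, so the ratio to this marker varied too and overlapped between the groups. The part of macrophages in the chemokine values was not tested.

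**Figure D4:**
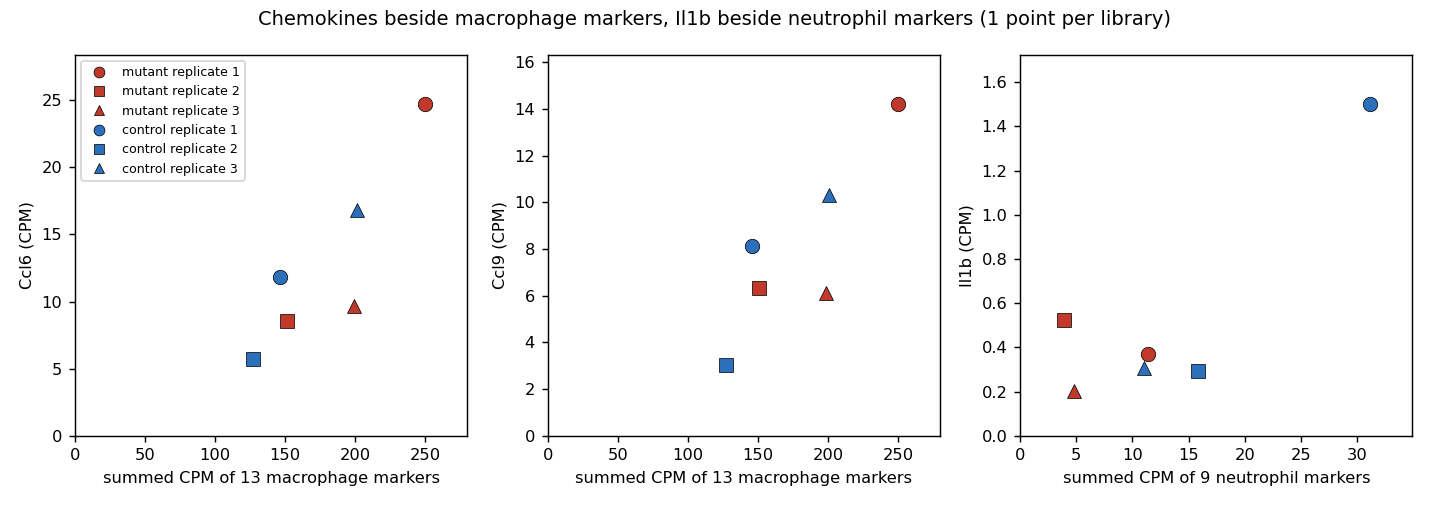
Ccl6 and Ccl9 (CPM) against the summed CPM of 13 macrophage markers, and Il1b (CPM) against the summed CPM of 9 neutrophil markers, 1 point per library with mutants in red and controls in blue. Mutant replicate 1 is highest for both chemokines and for macrophage markers (250 CPM), and control replicate 1 is highest for Il1b and for neutrophil markers (31.2 CPM).

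Cxcl12 (ENSMUSG00000061353, chromosome 6) codes for the chemokine that stromal and endothelial cells make and that CXCR4 and the scavenging receptor ACKR3 bind. It stood at 106, 93.6 and 106 CPM in mutant replicates 1, 2 and 3, against 88.8, 65.7 and 97.8 CPM in the controls. Only control replicate 3 lay within the mutants, above mutant replicate 2. The log2 fold change was 0.27 (95% interval -0.13 to 0.68, edgeR adjusted p = 0.824), an interval of 0.916 to 1.6 times the control level. Scaled to library totals alone, the mutants lay wholly above the controls.

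Receptors of Cxcl12 and markers of its known sources overlapped between the groups or were not called. Cxcr4 averaged 3 ± 0.939 CPM in mutants and 2.77 ± 0.823 CPM in controls, and Ackr3 averaged 20.5 ± 5.53 CPM in mutants and 18.4 ± 3.17 CPM in controls (SD, n = 3 each), with edgeR adjusted p = 0.973 and 0.939. The 9 markers of fibro-adipogenic progenitors and fibroblasts summed to 1590 to 5060 CPM in mutants and 1660 to 4360 CPM in controls, and the 8 endothelial markers to 354 to 485 CPM in mutants and 328 to 390 CPM in controls, with 0 of either list called by edgeR and none at 0. Most of the spread of the first sum came from 2 collagen genes. Col1a1 stood at 2130 CPM in mutant replicate 3 and 1420 CPM in control replicate 3, against 69.1 to 226 CPM in the other libraries. Col3a1 stood at 1500 and 1360 CPM in the same libraries, against 140 to 306 CPM in the others. Control replicate 2, lowest in Cxcl12, was not the lowest library in either sum. Nearest in pattern to Cxcl12 were Myo7a (0.036) and Hltf (0.039). For Casp1 they were Eif1 and Gm16378 (0.058 each) and for Ccl2 they were Gm48882 (0.14) and Htra4 (0.15).

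The extremes of the 10 genes gathered in a few libraries. Control replicate 2 was the lowest library in 7 genes (Nlrp3, Pycard, Il6, Ccl2, Ccl6, Ccl9 and Cxcl12), where 20.6% of all genes tested had their lowest value in it. For Il6 that place rests on 2 read pairs, against 3 to 5 in the other libraries. Mutant replicate 1 was highest in 4 and lowest in 0, beside 12.5% and 13% of all genes tested. These genes share libraries and in part cells, and they are not independent of each other.

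The wider pathway was described by 7 lists holding 100 other genes, of which 76 passed the filter. EdgeR called 0 of them, 8 passed an unadjusted p of 0.05 (3 higher and 5 lower, 10.5% against 6.94% of all genes), and 10 did not overlap between the groups (13.2% against 12.1%). The median log2 fold change was -0.0069. DESeq2 called 1, Cxcl14, which is 1.32% of the 76 beside 1.18% of all genes to which it gave an adjusted p.

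Among inflammasome sensors, partners and effectors 13 of 18 genes were tested, 7 being higher and 6 lower with a median log2 fold change of 0.072. Of the other sensors, Nlrc4 did not pass the filter and averaged 0.229 ± 0.0994 CPM in mutants and 0.287 ± 0.223 CPM in controls (SD, n = 3 each). Aim2, the sensor of cytosolic DNA, passed it and averaged 0.779 ± 0.175 CPM in mutants and 0.741 ± 0.267 CPM in controls. P2rx7, the channel through which extracellular ATP gives the second signal, stood at 2.41, 2.34 and 2.8 CPM in mutants, against 1.27, 2.18 and 2.11 CPM in controls, and did not overlap (log2 fold change 0.44, SE 0.28, edgeR adjusted p = 0.832). Ninj1, which ruptures the membrane of dying cells, stood at 15.3, 13.6 and 11.3 CPM in mutants, against 15.5, 17.1 and 17.9 CPM in controls (log2 fold change -0.33, SE 0.15, edgeR adjusted p = 0.756). Gsdme, a pore-forming gasdermin, averaged 16.9 ± 1.14 CPM in mutants and 12.5 ± 5.11 CPM in controls, and Gsdmd, the gasdermin that caspase-1 cuts, averaged 3.48 ± 0.533 CPM in mutants and 3.05 ± 0.303 CPM in controls.

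Of 11 receptors, antagonists and relatives of interleukin-1 and interleukin-18, 9 were tested, 4 higher and 5 lower with a median of -0.1. Il1r1, the signalling receptor, stood at 6.74, 9.65 and 7.84 CPM in mutants, against 20.6, 9.58 and 15.7 CPM in controls (log2 fold change -0.92, SE 0.29, edgeR adjusted p = 0.574). The decoy receptor Il1r2 stood at 0.714, 0.496 and 0.407 CPM in mutants, against 1.57, 0.589 and 1.42 CPM in controls (log2 fold change -1.14, SE 0.45, edgeR adjusted p = 0.684). In both genes control replicate 2 lay within the mutants and the other controls above them. The antagonist Il1rn averaged 0.429 ± 0.243 CPM in mutants and 0.17 ± 0.125 CPM in controls (edgeR adjusted p = 0.794), and Il1a had 1 read pair in all libraries.

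Of 12 genes of the interleukin-6 family and its response, 10 were tested, 7 higher and 3 lower with a median of 0.1. Stat3, the transcription factor of this pathway, stood at 71, 79.4 and 64.3 CPM in mutants, against 61.5, 53.8 and 54.9 CPM in controls, and did not overlap (log2 fold change 0.33, SE 0.13, edgeR adjusted p = 0.677). Its target Socs3, a feedback inhibitor, stood at 9.94, 25.3 and 3.54 CPM in mutants, against 6.97, 2.49 and 4.88 CPM in controls, with the female mutants highest and the male mutant within the controls. The change of Stat3 was 0.18 with sex as a covariate, which again rests on the 1 male mutant. Il6st, the shared receptor chain gp130, averaged 248 ± 31.4 CPM in mutants and 243 ± 16.4 CPM in controls (SD, n = 3 each). Jak1, a kinase of that receptor, averaged 187 ± 29.5 CPM in mutants and 241 ± 57.2 CPM in controls (edgeR adjusted p = 0.814).

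Other chemokines differed in direction. Of 14 CC chemokines 8 were tested, 5 higher and 3 lower with a median of 0.5, and of 12 CXC and CX3C chemokines 8 were tested, 6 higher and 2 lower with a median of 0.14. Cxcl14, a chemokine of epithelia and stroma, stood at 43.5, 29.5 and 50 CPM in mutants, against 90.9, 109 and 60.6 CPM in controls, and did not overlap. Its log2 fold change was -1.08 (SE 0.27, edgeR adjusted p = 0.461), and DESeq2 gave -1.09 (adjusted p = 0.0237). Across 17 alternative settings of the analysis it ranged from -1.29 to -0.79, and DESeq2 was the only one to call it. These settings reuse the same libraries, in which every mutant lay below every control, so the kept sign adds no support. Cxcl9, an interferon-gamma induced attractant of T cells, stood at 1.19, 2.51 and 1.53 CPM in mutants, against 0.549, 0.997 and 0.509 CPM in controls (log2 fold change 1.34, SE 0.42, edgeR adjusted p = 0.572). Ccl24, an eosinophil attractant, stood at 1.51, 2.18 and 1.3 CPM in mutants, against 0.924, 0.816 and 1.22 CPM in controls (log2 fold change 0.75, SE 0.32, edgeR adjusted p = 0.719). In both genes every mutant lay above every control, without passing the adjusted threshold. Ccl25, an attractant of thymocytes and gut T cells, lay the other way, at 4.26, 3.83 and 3.54 CPM in mutants, against 5.14, 4.64 and 5.21 CPM in controls, and did not overlap either (log2 fold change -0.37, SE 0.18, edgeR adjusted p = 0.777). Cxcl10, interferon-induced like Cxcl9, averaged 1.42 ± 1.74 CPM in mutants and 0.342 ± 0.354 CPM in controls, and Ccl22, a ligand of CCR4, averaged 0.532 ± 0.438 CPM in mutants and 0.244 ± 0.214 CPM in controls (SD, n = 3 each). Both overlapped between the groups, with edgeR adjusted p = 0.805 and 0.897.

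Of 13 chemokine receptors 9 were tested, 3 higher and 6 lower with a median of -0.1. Ccr1, a receptor of inflammatory CC chemokines, stood at 0.687, 0.469 and 0.662 CPM in mutants, against 1.45, 0.385 and 1.37 CPM in controls (log2 fold change -0.81, SE 0.52, edgeR adjusted p = 0.832). Cxcr2, the neutrophil receptor, stood at 0.502, 0.248 and 0.458 CPM in mutants, against 2.47, 0.838 and 0.737 CPM in controls, and did not overlap (log2 fold change -1.73, SE 0.57, edgeR adjusted p = 0.617). Without control replicate 1 its change was -0.97. Ackr2, a scavenger of CC chemokines, averaged 1.26 ± 0.442 CPM in mutants and 1.66 ± 0.446 CPM in controls (edgeR adjusted p = 0.89). Cx3cr1 averaged 0.949 ± 0.128 CPM in mutants and 1.03 ± 0.74 CPM in controls (SD, n = 3 each).

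Of 20 genes of Toll-like receptor and NF-kB priming, the first step towards an inflammasome, 19 were tested, 6 higher and 13 lower with a median of -0.071. Tnf, the one left out, averaged 0.114 ± 0.0113 CPM in mutants and 0.123 ± 0.0701 CPM in controls. Nfkbia, the NF-kB inhibitor and target, stood at 23.8, 22.4 and 31.2 CPM in mutants, against 20.7, 20.3 and 19.2 CPM in controls, and Myd88, the adaptor of Toll-like and interleukin-1 receptors, at 6.32, 9.15 and 5.22 CPM in mutants, against 4.52, 4.62 and 4.91 CPM in controls. Neither overlapped between the groups, with log2 fold changes of 0.36 (SE 0.16) and 0.56 (SE 0.24) and edgeR adjusted p = 0.723 and 0.72, and that of Myd88 was 0.16 with sex as a covariate, resting on the 1 male mutant. Tlr6 stood at 0.793, 0.606 and 1.07 CPM in mutants, against 0.549, 2.95 and 4.42 CPM in controls (log2 fold change -1.68, SE 0.69, edgeR adjusted p = 0.704), and overlapped through control replicate 1. Of the NF-kB subunits, Nfkb1 averaged 28.7 ± 1.1 CPM in mutants and 30.9 ± 2.77 CPM in controls, and Rela averaged 22.3 ± 1.03 CPM in mutants and 21 ± 1.05 CPM in controls (SD, n = 3 each).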

How the data were processed

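The authors deposited raw counts of read pairs per gene, as a matrix and as strand-resolved files per library. Per the submitters' processing notes, STAR 2.7.11b and GRCm39 were used, and no source used here names the annotation. The matrix equals the unstranded counts, and 18.5% to 22.3% of pairs, assigned to no single gene, stayed out of library sizes. The authors' deposited DESeq2 1.50.2 table gives mean normalized signal, log2 fold changes, Wald scores and p-values, and served for 1 sentence. Symbols matched 52029 of 57010 IDs.

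The test was edgeR 4.0.16 (R 4.3.3) with TMM, filterByExpr (minimum count 10) and a robust quasi-likelihood F-test over all 15589 genes, Benjamini-Hochberg adjusted, a gene being called below 0.05. Standard errors and 95% intervals come from that F statistic. Its calls and fold changes were checked on simulated counts. Alternatives were DESeq2 1.42.0, limma-voom 3.58.1, other scalings and filters, sex, a replicate block, males only, strand-matched counts and each library left out.

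The members, lists and markers were chosen with earlier results of these data known. Named were all members, called genes of each pathway list or else the 3 with the smallest p, and the 2 genes nearest in pattern to each member of at least 1 CPM (centred log2 CPM, prior count 2). Ccl7, Ccr2, Cxcr4, Ackr3, Nlrc4, Aim2, Gsdmd, Il1a, Il6st, Cx3cr1, Tnf, Nfkb1, Rela, Trim72, Gm45205, Ly6g, Ngp, Ifi202b and H2-Ea-ps were added after their values were seen, for their roles. Col1a1 and Col3a1 were also added then, for their weight in the sum of their list. The rule of the smallest p picked 3 genes of each marker list (2 for T and NK cells). Of these only Lyz2, Itgam, Ly6c2, F13a1, Csf3r, Mmp8, Cxcr2, Vwf and Rgs5 are printed. S100a8, S100a9, Csf1r, Adgre1, C1qa, Acta1 and Ckm stand as examples of their lists. Lists and markers are described by counts and medians, with no set test. Intervals of ratios cover counting error only.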

Additional observations from a re-analysis of the deposited data

How the results depend on the processing

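No member was called in any of 17 settings, and none passed an unadjusted p of 0.05 in any. Not every member was tested in each setting: the filter of 1 CPM in 3 libraries left 5, and Il6 was tested only without a filter. Of 149 fold changes of members across settings, 132 kept their sign and 17 reversed it, none of them called in either. With sex as a covariate, and equally in males only, Casp1 was at -0.68, Ccl2 at -0.58, Ccl6 at -0.24 and Ccl9 at -0.22. Leaving out single libraries gave ranges of -0.012 to 0.54 for Nlrp3, -0.13 to 0.33 for Casp1, -0.32 to 0.71 for Ccl6, -0.2 to 0.67 for Ccl9 and -1.3 to 0.27 for Il1b, and limma-voom put Casp1 at -0.0043. Of 9 members, the number whose groups did not overlap was 1 with library totals alone (11.8% of all genes there), 3 in males only, with 1 mutant (48.4%), and 0 to 2 with a library left out (16.8% to 25.2%). The number of called genes over the whole table was 184 in DESeq2, 79 without a filter, 0 in males only and with sex as a covariate, and 6 to 49 with a library left out. In the settings with 0, 594 genes (males only) and 882 genes (sex as a covariate) passed an unadjusted p of 0.05 in edgeR. With the replicate block it was 11, and the block called no member. Deviations of same-numbered libraries correlated at 0.173, -0.0607 and 0.178 for replicates 1, 2 and 3, and those of differently numbered ones at -0.239 to 0.156. The values of replicates 1 and 3 lay above all others, and that of replicate 2 did not. So few values cannot decide on a pairing. The main test did not take the numbers as one. DESeq2 called 1 gene among the CXC and CX3C chemokines, Cxcl14. The cause of these moves was not tested. Nlrp3, Il18 and Il6 rest on 31 or fewer read pairs in each library, and the parts of depth and of spread between animals in their intervals were not separated.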

Other observations

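Markers of fibres and other cell types had 0 calls among 79 tested genes of 12 lists, with 9 past an unadjusted p of 0.05 in edgeR (3 higher and 6 lower, 11.4% beside 6.94% of all genes). Of these 9, 5 were neutrophil markers. Of 5 monocyte markers 1 was higher and 4 lower. Ly6c2, which marks inflammatory monocytes and some endothelial cells, stood at 0.106, 0.276 and 0.204 CPM in mutants, against 1.52, 1.13 and 3.13 CPM in controls. Its log2 fold change was -3.29 (SE 0.54, edgeR adjusted p = 0.151). DESeq2 called it (adjusted p = 1.34e-05), as did edgeR without a filter on low counts (adjusted p = 0.00104). Its sign was the same in 17 alternative settings of the analysis. These reuse the same libraries, in which every mutant lay below every control, so the kept sign adds no support. The monocyte list as a whole had a median log2 fold change of -0.49 and summed to 26.7 to 36.4 CPM in mutants and 23.7 to 43 CPM in controls. F13a1 led that sum, at 17.9 to 25.6 CPM in mutants and 15.2 to 25.8 CPM in controls, so Ly6c2 weighs little in it.

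Of 8 endothelial markers 7 were higher, with Vwf at 51.6 ± 5.28 CPM in mutants and 31.6 ± 8.39 CPM in controls (edgeR adjusted p = 0.53), and of 6 pericyte and smooth muscle markers 5 were higher, with Rgs5 at 430.0 ± 60.4 CPM in mutants and 330.0 ± 23 CPM in controls (edgeR adjusted p = 0.701; SD, n = 3 each). All 5 tested mast cell markers and all 5 adipocyte markers were higher, with summed levels of 8.85 to 17.7 CPM in mutants and 6.48 to 12.9 CPM in controls for mast cells, and 30.7 to 93.6 CPM in mutants and 18.8 to 59 CPM in controls for adipocytes. Satellite cell markers summed to 36.8 to 49.6 CPM in mutants and 38.1 to 47.7 CPM in controls. Lymphocyte markers were low, with 8 T and NK cell markers summing to 1.3 to 1.72 CPM in mutants and 1.88 to 1.93 CPM in controls. Of these 8, only 2 passed the filter, 1 higher and 1 lower, and edgeR called 0. The 4 B cell markers summed to 0.967 to 3.09 CPM in mutants and 0.799 to 2.67 CPM in controls.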
